A study of Mus musculus with 6 samples.

Results

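The nuclear-encoded genes of the mitochondrial respiratory chain were followed in 6 brain RNA-seq libraries of C57 mice. They were taken from the count table by gene symbol: Ndufa, Ndufb, Ndufc, Ndufs and Ndufv genes with a number (complex I), Sdha to Sdhd (complex II), Uqcr genes (complex III), Cox4a to Cox8c type symbols (complex IV) and Atp5 genes (complex V, the ATP synthase). The rule found 83 of the 50559 listed genes, 37 of complex I, 4 of complex II, 8 of complex III, 17 of complex IV and 17 of complex V, and 13 pseudogene rows with similar symbols were left out. Cox4i1, Cox4i2, Cyc1, Cycs and Ndufab1 also belong to the chain or its carriers but do not match the symbols, and they are given separately. Cox6c2 matches the rule but is annotated as a processed pseudogene, so its reads cannot be separated with certainty from those of Cox6c. Of the 83 genes, 81 had enough counts to be tested, and the untested ones were Cox8b and Cox8c.

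The study asked which transcripts differ in the mouse auditory cortex when WNT3, a secreted ligand of the Wnt pathway, is overexpressed. It has 3 libraries labelled as control and 3 labelled as WNT3 overexpression (OE), here called control 1 to 3 and OE 1 to 3. The labels do not give the age of the mice, how WNT3 was overexpressed, what the controls received, or whether the libraries of a group come from separate animals, so the p-values measure the spread between these libraries only. The tissue is labelled auditory cortex, but the extraction protocol names striatum.

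The respiratory chain passes electrons from NADH (through complex I) and succinate (through complex II) to ubiquinone, then through complex III and cytochrome c to oxygen at complex IV. Complexes I, III and IV pump protons across the inner mitochondrial membrane, and complex V uses the gradient to make ATP. Apart from complex II, each complex joins subunits encoded in the nucleus with subunits encoded in the mitochondrial genome, and neurons draw most of their ATP from the chain.

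Total counts were between 42614588 and 71803617 per library. Expression is given as CPM, the count scaled to a fixed library total after TMM scaling by edgeR. Wnt3 was at 2.70, 1.91 and 1.74 CPM in controls 1 to 3 and at 98.8, 7.45 and 8.71 CPM in OE 1 to 3, so the groups did not overlap and OE 1 stood far above the other OE libraries. Slc17a7, a marker of cortical excitatory neurons, was between 681 and 826 CPM, and the striatal dopamine receptor genes were lower, Drd1 between 8.19 and 22.4 CPM and Drd2 between 0.64 and 6.35 CPM. Control 2 stood apart from the other 5 libraries in the genes described here. The medians by complex and many fold changes are therefore given with and without it. Other results include control 2 unless the passage says otherwise. In bulk tissue, fewer cells of a type and less RNA per cell cannot be told apart.

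The chain genes together took 0.596%, 1.33% and 0.569% of the counts in controls 1 to 3 and 0.579%, 0.602% and 0.587% in OE 1 to 3. Their deposited TPM values (corrected for transcript length and scaled to the same total in each library) summed to 16701, 29998 and 15731 in the controls and to 16370, 16887 and 16442 in OE. On both scales control 2 was far above the other 5 libraries, and those 5 were close to each other whatever their group. The same held for complex I (5055, 9799 and 4952 TPM in control, 5165, 5296 and 5216 in OE), complex III (1592, 2871 and 1502, against 1578, 1579 and 1564), complex IV (3699, 6689 and 3228, against 3142, 3519 and 3382) and complex V (5772, 10007 and 5460, against 5829, 5877 and 5693). Complex II was the exception, with 583, 633 and 588 TPM in control and 656, 616 and 587 TPM in OE, where OE 1 had the highest sum.

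Levels of single genes were compared per transcript length, as the mean TPM of the 5 libraries other than control 2. The highest value in complex I was 461 TPM for Ndufa4, a subunit now usually assigned to complex IV. In complex II it was 259 TPM for Sdha, the flavoprotein that oxidises succinate, against 79.7 TPM for Sdhd, one of the membrane anchors. Uqcrh, the hinge protein of complex III, reached 528 TPM, and Uqcrq, a small subunit of the same complex, was lowest in it at 55.2 TPM. Cox6c led complex IV with 716 TPM, and Atp5b, the catalytic beta subunit of the ATP synthase, led all 83 genes with 794 TPM. Among genes at 20 TPM or more the highest exceeded the lowest 12.8-fold in complex I and 9.51-fold in complex V, so subunits of 1 complex did not have equal TPM. These levels depend on the transcript lengths used for the TPM, whose annotation is not given.

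Several subunits exist as isoforms used in different tissues, and the brain libraries held almost only one of each pair. Cox6a2, the heart and muscle form of subunit VIa, made up 2.94% to 4.24% of the summed TPM of Cox6a1 and Cox6a2. Cox7a1, the muscle form of subunit VIIa, made up 0.665% to 1.77% of Cox7a1 and Cox7a2, and Cox6b2, the testis form of subunit VIb, 0.452% to 1.42% of the Cox6b pair. Cox8c had no count in any library, and Cox8b, the muscle form of subunit VIII, gave at most 0.343% of the Cox8 sum. Of the 3 genes for ATP synthase subunit c, Atp5g3 supplied 59.4% to 63.0%, Atp5g1 17.9% to 22.3% and Atp5g2 16.4% to 21.7%. Control 2 had the highest share of Cox7a1 (1.77%) and of Atp5g1 (22.3%) and the lowest of Cox6a2 (2.94%) and Atp5g2 (16.4%). OE 1 had the highest share of Cox6b2 (1.42%, against 0.452% to 0.823% in the other libraries) and of Atp5g2 (21.7%) and the lowest of Atp5g3 (59.4%). The controls and OE libraries overlapped for each subunit c gene.

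Known regulators of these genes include the nuclear respiratory factor NRF1, the ETS family factor GABP (also called NRF2) and YY1. RefSeq promoter windows of GRCm38.p6, from 250 bases before to 50 bases after the start of each gene, were matched to 69 of the 83 genes and searched on both strands. A gene counted as matched if any of its windows held the motif. The NRF1 core CGCATGCG, which is its own reverse complement, was found in 9 of the 69 (13.0%, against 2.07% of all 27025 genes with a window). The ETS core CCGGAAG was in 17 (24.6%, against 9.93%), and the YY1 core AAGATGGCG in 7 (10.1%, against 1.64%). At least 1 of the motifs was in 27 genes (39.1%, against 12.8%), and none of the motifs contains another. By complex the count was 11 of 33 genes for complex I, 2 of 3 for complex II, 3 of 5 for complex III, 3 of 13 for complex IV and 8 of 15 for complex V. A match is a description of the letters and not a binding site.

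The promoters of 4 genes are shown because they place the motifs beside genes whose values follow. They are, for each complex, the most abundant gene considered that had a match in the 100 bases before its start, a choice made after the sequences were seen. Only genes located by GENCODE M21, with a start near the RefSeq start, were considered. Atp5md was not located and was left out, although its window had an ETS match. No complex IV gene met these conditions, although Cox6a1, Cox6b1 and Cox8a had a match in their windows. Capitals mark the match, which for Ndufa11 is the NRF1 core and for the others the reverse complement of the ETS core. They lie at chr17:56717662-56717761 (plus strand, Ndufa11), chr9:50603850-50603949 (minus strand, Sdhd), chr4:116075072-116075171 (minus strand, Uqcrh) and chr2:174464106-174464205 (minus strand, Atp5e) of GRCm38.p6, each read 5′ to 3′ on the strand of its gene.
Ndufa11: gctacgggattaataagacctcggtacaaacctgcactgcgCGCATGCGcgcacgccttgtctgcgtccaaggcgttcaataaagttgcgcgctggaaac
Sdhd: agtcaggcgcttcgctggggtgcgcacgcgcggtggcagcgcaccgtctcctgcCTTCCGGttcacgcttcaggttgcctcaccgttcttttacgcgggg
Uqcrh: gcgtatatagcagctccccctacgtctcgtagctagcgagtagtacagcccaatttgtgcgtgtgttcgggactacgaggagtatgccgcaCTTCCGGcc
Atp5e: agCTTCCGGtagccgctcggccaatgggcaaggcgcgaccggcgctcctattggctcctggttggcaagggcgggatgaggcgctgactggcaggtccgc

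The main comparison, OE against control over all 6 libraries, found lower fitted values in OE for 80 of the 81 tested chain genes and a higher value for Sdha alone. The median log2 fold change was -0.68, against -0.01 over all 22360 tested genes, of which 50.7% were below 0. No chain gene passed edgeR's quasi-likelihood test at an adjusted p of 0.05, where the share of all tested genes called was 0%, and the lowest adjusted p among them was 0.822. At an unadjusted p below 0.05, 4 chain genes were lower and 0 higher, against 2.8% and 1.86% of all tested genes, so the 4 are not read as a result about the chain. DESeq2 also called 0 of the chain genes, against 0.25% of the genes it gave an adjusted p, and had 16 of them lower at an unadjusted p below 0.05, against 2.46% of its genes. On the deposited TPM, with limma-trend on log2(TPM + 1), the median of all genes moved up by 0.15, and the chain genes were at -0.26, which is -0.40 relative to all genes, with 77 lower, 4 higher and 0 called.

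By complex the median log2 fold change was -0.71 in complex I (37 genes), -0.33 in complex II (4), -0.62 in complex III (8), -0.72 in complex IV (15) and -0.66 in complex V (17). Without control 2 the medians were 0.01, 0.01, -0.01, -0.05 and 0.01 in the same order. Over all 81 genes the median was then 0.003, beside 0.02 over all tested genes, with 41 genes higher and 40 lower in OE. None of the 81 passed the adjusted threshold of edgeR in that fit and 0 had an unadjusted p below 0.05, against 5.87% of all genes tested there. In 73 of the 81 the fold change lay within 0.2 of 0 on the log2 scale.

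**Figure D1:**
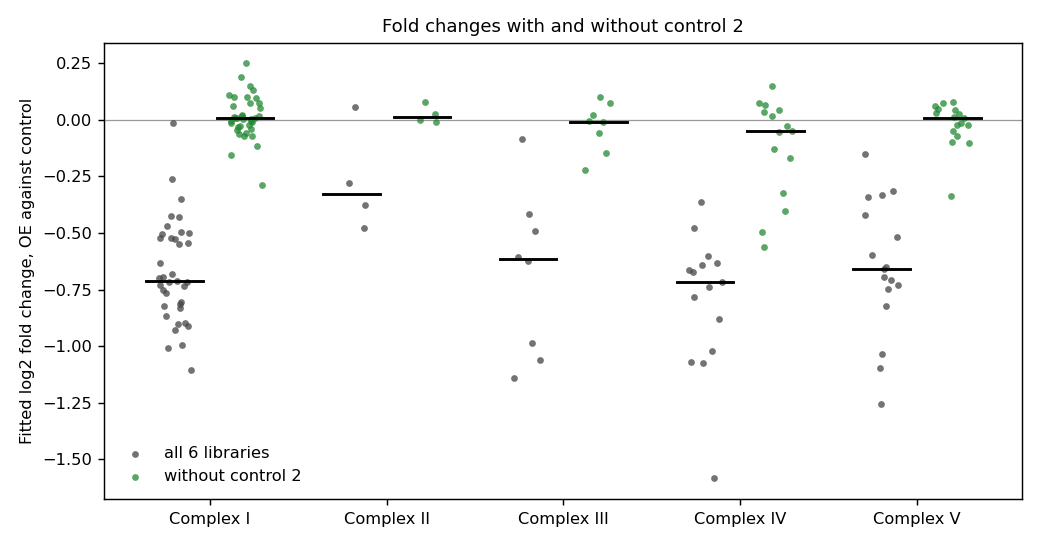
Fitted log2 fold changes (vertical axis) of the 81 tested genes by complex, from all 6 libraries (grey points) and without control 2 (green points), with the median of each as a black bar. With all libraries the medians lie between -0.72 and -0.33, and without control 2 between -0.05 and 0.01.

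The width of the intervals differed as much as the values. With all 6 libraries the 95% interval of the log2 fold change lay wholly within -0.5 and 0.5 for 3 of the 81 chain genes, and without control 2 for 69. Leaving out control 1 instead gave 39 chain genes that were lower at an unadjusted p below 0.05 (4.5% of all tested genes), and leaving out control 3 gave 42 (4.96%), with 0 past the adjusted threshold in both. Leaving out OE 1, OE 2 or OE 3, with control 2 kept, gave 0, 1 and 0 (1.44%, 1.6% and 1.92% of all tested genes). The median of the chain was below 0 in each of these 5 fits and 0.003 in the fit without control 2, whereas the count varied with every library left out.

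The values by library show which samples set these medians. As the median over the 81 genes of the log2 difference from the mean of controls 1 and 3, control 1 was at 0.03, control 2 at 1.47 and control 3 at -0.03, and OE 1 to 3 were at -0.05, 0.01 and 0.04. As medians over all 81 genes, the 3 OE libraries lay as near to controls 1 and 3 as those lay to each other. Opposite differences of single genes cancel in such a median, and complexes differed. In complex IV OE 1 was at -0.17, OE 2 at -0.05 and OE 3 at 0.03, against 0.05 and -0.05 in controls 1 and 3. Control 2 had the highest value of the 6 libraries in 78 of the 81 genes, against 35.8% of all tested genes. In CPM it exceeded the mean of controls 1 and 3 by a median of 2.80-fold over 80 chain genes (0.992-fold over all genes with a value), and by at least 2-fold in 68 of them (85%, against 13.2%). Cox7b2 was left out of that ratio because it had 0 counts in control 1, with 14 in control 2, 17 in control 3 and 0, 9 and 14 in OE 1 to 3.

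**Figure D2:**
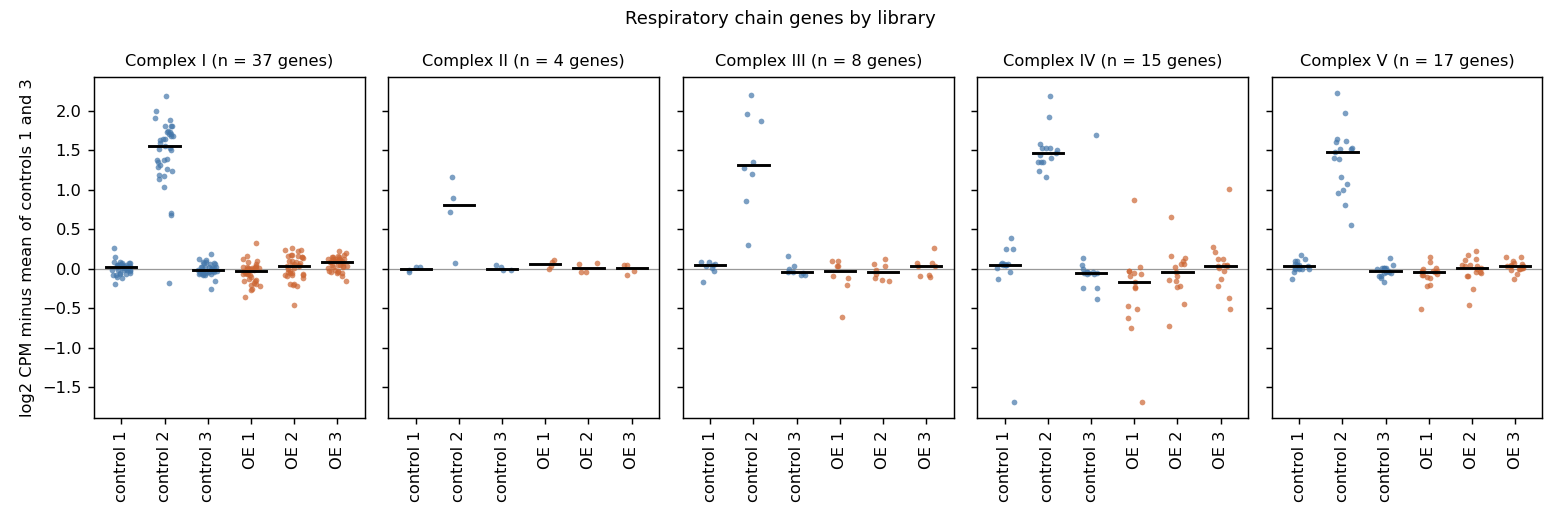
Each point is 1 tested gene, drawn by complex and library as its log2 CPM minus the mean log2 CPM of controls 1 and 3 (blue, control; orange, OE), and black bars are medians. Control 2 is raised in every complex, least in complex II, while the OE medians stay between -0.17 and 0.08; the complex IV point near -1.7 in control 1 and in OE 1 is Cox7b2.

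In complex I the nuclear-encoded core subunits, which include those that carry the flavin and iron-sulphur clusters, had a median of 2.35-fold over 7 genes in control 2, and the accessory subunits 3.10-fold over 30, a difference that was not tested. Ndufs1, the largest iron-sulphur subunit (mm10 chr1:63143596-63176833), was singled out after its values were seen. It had 136, 114 and 123 CPM in controls 1 to 3 and 130.4, 122 and 116 CPM in OE 1 to 3. Control 2 was the lowest of the 6 libraries for it, and its log2 fold change was -0.02 ± 0.15 (SE; edgeR adjusted p = 0.979). Ndufa4 had 94.3, 291 and 84.5 CPM in control and 87.9, 105 and 96.8 CPM in OE, a log2 fold change of -0.70 ± 0.44 with all libraries and 0.11 ± 0.11 without control 2. Ndufb9 and Ndufb10, accessory subunits of the membrane arm, went from -0.73 and -0.68 to 0.01 and 0.02.

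Ndufb2, a small accessory subunit (mm10 chr6:39592574-39603382), was the complex I gene with the smallest unadjusted p, 0.047. Its values were 16.9, 46.8 and 11.7 CPM in control and 11.0, 10.2 and 13.9 CPM in OE. Control 1 as well as control 2 was above every OE library, but control 3 lay within their range, and the log2 fold change was -1.11 ± 0.47 with all libraries and -0.29 ± 0.21 without control 2. The core subunit Ndufs3 had 52.2, 117 and 42.3 CPM against 38.8, 44.3 and 44.0 CPM, with -0.73 ± 0.36 and -0.15 ± 0.13 in the same order. Ndufc1 was at 15.6, 59.7 and 16.2 CPM against 14.3, 13.6 and 17.5 CPM, and differed by -1.01 ± 0.50 and -0.07 ± 0.15. Ndufa11, shown above for its NRF1 match, had 17.9, 81.6 and 23.3 CPM in control and 20.9, 22.4 and 22.6 CPM in OE.

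Complex II was the least raised in control 2, with a median of 1.75-fold, and 1 of its 4 genes was at 2-fold or more. Sdha (mm10 chr13:74322254-74350280) had 285, 307 and 301 CPM in control, 298 ± 11.2 (SD, n = 3), and 317, 309 and 302 CPM in OE, 309 ± 7.44 (SD, n = 3). The groups overlapped through control 2, and the log2 fold change was 0.05 ± 0.14 (edgeR adjusted p = 0.92). Sdhb, the iron-sulphur subunit, had 66.4, 147 and 64.9 CPM against 67.0, 68.6 and 64.3 CPM, so only control 2 stood out. The membrane anchors Sdhc (56.0, 92.9 and 57.3 CPM against 56.5, 54.9 and 58.4 CPM) and Sdhd (42.7, 78.4 and 41.3 CPM against 44.7, 40.8 and 39.7 CPM) had the same form. Without control 2 their log2 fold changes were 0.02 ± 0.09 for Sdhb, -0.0003 ± 0.09 for Sdhc and -0.01 ± 0.10 for Sdhd.

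Complex III held the gene whose groups did not overlap. Uqcrc1, a core protein of the complex on the matrix side (mm10 chr9:108936633-108949623), had 118, 208 and 112 CPM in control and 99.4, 105 and 106 CPM in OE. It was the only chain gene with every OE library below every control, and none had every OE library above (6.04% and 5.89% of all tested genes). Its log2 fold change was -0.49 ± 0.25 with all libraries and -0.15 ± 0.09 without control 2, at an edgeR adjusted p of 0.822 and 0.917. Its partner Uqcrc2, named after its values were seen, had 139, 170.3 and 138 CPM against 149, 142 and 130.4 CPM, and overlapped.

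The small subunits of complex III were the most raised in control 2. Uqcr11, also named after its values were seen, had 20.7, 107 and 26.0 CPM in control and 23.7, 22.2 and 27.9 CPM in OE, and Uqcr10 41.7, 158 and 39.6 CPM against 38.1, 40.1 and 42.6 CPM. Uqcrh had 125, 301 and 111 CPM against 109, 123 and 121 CPM, and Uqcrb 46.7, 109 and 43.2 CPM against 45.9, 40.7 and 42.5 CPM. In these 4 genes the OE libraries overlapped with controls 1 and 3. Uqcrq differed in that OE 1 was low: 37.0, 138 and 38.5 CPM in control and 24.6, 33.9 and 38.4 CPM in OE, a log2 fold change of -1.14 ± 0.50 (edgeR adjusted p = 0.822) and of -0.22 ± 0.19 without control 2.

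In complex IV, Cox8a and Cox5b had the smallest unadjusted p values, 0.028 and 0.038. Cox8a, the main form of subunit VIII (mm10 chr19:7215153-7217616), had 90.8, 177 and 53.1 CPM in control and 41.3, 62.4 and 48.8 CPM in OE. Cox5b, a zinc-binding subunit (mm10 chr1:36691449-36693681), had 74.6, 182 and 53.3 CPM in control and 45.4, 53.5 and 53.9 CPM in OE. In both, controls 1 and 2 were above every OE library and control 3 was not. The log2 fold changes were -1.07 ± 0.40 and -1.02 ± 0.41 with all libraries, and -0.50 ± 0.25 and -0.33 ± 0.16 without control 2, where the edgeR adjusted p was 0.887 and 0.883.

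The other named complex IV genes, abundant subunits and low isoforms alike, were raised in control 2, and all 14 complex IV genes with a ratio were at 2-fold or more over controls 1 and 3. Cox6c had 157, 415 and 144 CPM in control and 128, 157 and 151 CPM in OE, and Cox6b1 109.5, 279 and 108 CPM against 107, 102 and 111 CPM. Cox7c had 79.5, 216 and 73.4 CPM against 68.0, 73.9 and 78.9 CPM, and Cox7a2 88.2, 232 and 82.6 CPM against 83.4, 91.2 and 83.8 CPM. For each of them control 2 was far above the rest, and for Cox6c and Cox7c OE 1 was the lowest library. Cox6a1 (85.4, 306 and 77.2 CPM against 57.1, 82.2 and 83.7 CPM) was also low in OE 1. The muscle-type Cox7a1 had the most negative fitted value of the 81 with all libraries, -1.58 ± 0.69, which was -0.40 ± 0.49 without control 2. Its level was low, at 0.52, 2.07 and 0.36 CPM in control and 0.36, 0.31 and 0.32 CPM in OE. These are 22, 113 and 18 counts in control and 20, 19 and 23 in OE. Control 2 was 4.75-fold over controls 1 and 3 for Cox7a1, 2.89-fold for Cox6a2 and 2.28-fold for Cox6b2. Cox6a2 had 3.82, 11.4 and 4.05 CPM against 2.53, 3.39 and 4.55 CPM, and Cox6b2 0.87, 2.18 and 1.05 CPM against 1.77, 0.56 and 0.87 CPM, and both overlapped. Cox7a2l, a factor for joining complexes III and IV, had 87.0, 199 and 82.0 CPM against 85.5, 92.8 and 86.5 CPM.

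In complex V the genes of the F1 sector were spread widely in control 2. The alpha, beta and gamma subunits Atp5a1, Atp5b and Atp5c1 were at 1.47, 1.75 and 1.93-fold over controls 1 and 3, and the small central stalk subunits Atp5d and Atp5e at 3.06 and 4.69-fold. The other 12 genes of the complex had a median of 2.81-fold. Atp5b (mm10 chr10:128083273-128090391) had 611, 1064 and 607 CPM in control, 761 ± 263 (SD, n = 3), and 609, 607 and 616 CPM in OE, 611 ± 4.49 (SD, n = 3). It was the steadiest chain gene outside control 2, with an SD of 0.01 on the log2 scale over 5 libraries, and its log2 fold change was -0.32 ± 0.24 with control 2 and 0.01 ± 0.07 without it. Atp5h, in the peripheral stalk, had 124, 332 and 109 CPM against 114, 113 and 119 CPM. Atp5md had 84.0, 225 and 78.2 CPM against 78.4, 94.8 and 82.9 CPM, and Atp5k 45.7, 168 and 39.8 CPM against 39.8, 41.2 and 42.9 CPM. These are small proteins of the membrane sector, and in both only control 2 lay outside the range of the rest.

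Atp5e, the epsilon subunit of the central stalk, was among the genes most raised in control 2, with 33.5, 158 and 33.8 CPM in control and 28.8, 28.2 and 37.2 CPM in OE. Its log2 fold change was -1.26 ± 0.58 with control 2 and -0.10 ± 0.15 without it. Atp5d, the delta subunit beside it (mm10 chr10:80138632-80145818), had 68.9, 189 and 54.6 CPM in control and 43.2, 44.7 and 58.4 CPM in OE, -1.09 ± 0.44 with an unadjusted p of 0.036, and -0.34 ± 0.17 without control 2. In the deposited TPM the order of the libraries was another: Atp5d had 96.4, 227 and 72.8 TPM in control and 93.2, 65.2 and 89.9 TPM in OE. There OE 1 as well as OE 3 was above control 3, whereas in CPM OE 3 was above it and OE 1 below. Of the subunit c genes, Atp5g3 had 117, 259.8 and 117 CPM against 107, 120.0 and 117 CPM, Atp5g1 36.7, 106 and 44.3 CPM against 38.2, 39.2 and 41.9 CPM, and Atp5g2 31.7, 63.1 and 31.8 CPM against 35.3, 32.9 and 32.5 CPM.

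**Figure D3:**
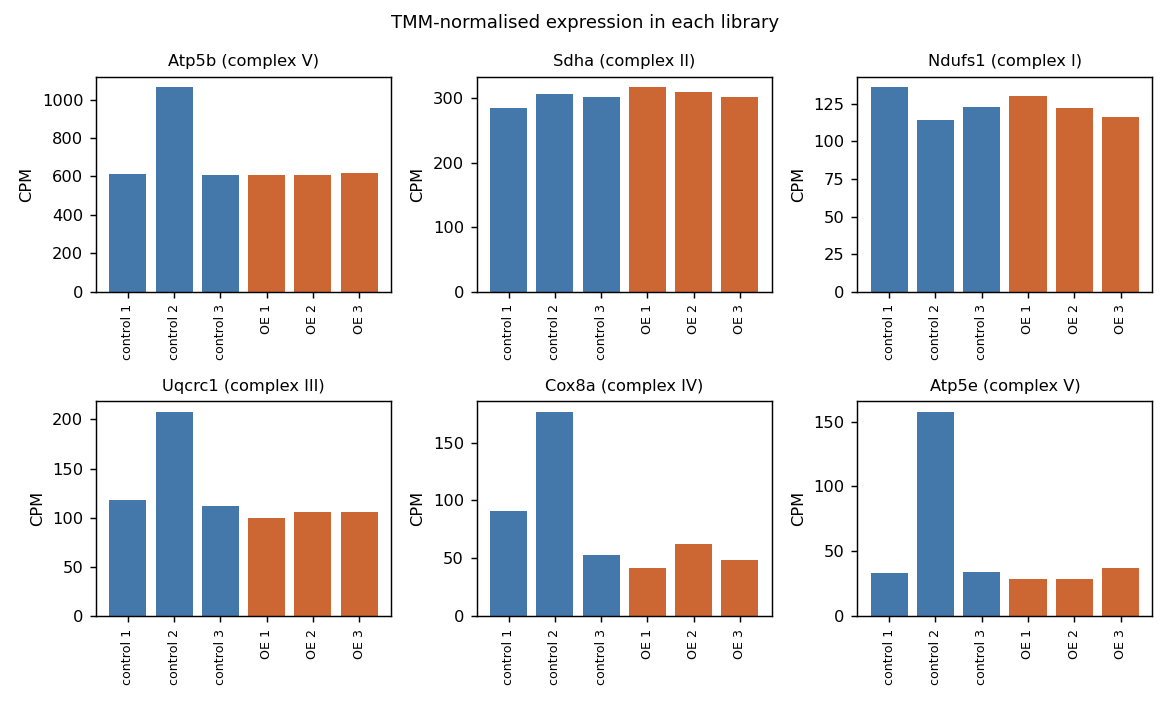
CPM in each library (bars; blue, control; orange, OE) for 6 genes, with every vertical axis starting at 0. Atp5b, Uqcrc1, Cox8a and Atp5e are highest in control 2 (1064, 208, 177 and 158 CPM), and Sdha and Ndufs1 are not.

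Without control 2, the groups of 1 chain gene did not overlap with OE below (Uqcrc1, against 10.7% of all tested genes) and those of 8 with OE above (against 11.2%). Over both directions these are 9 genes, against 21.9%, and leaving out control 1 or control 3 instead gave 7 and 21 genes, against 23.9% and 25.4%. The 8 with OE above without control 2 were Ndufa2, Ndufa7, Ndufb4, Ndufb5, Ndufb11, Ndufv3, Sdha and Atp5g2, all listed because of this pattern. The gaps were small: Ndufv3 had 23.5 and 26.4 CPM in controls 1 and 3 and 31.1, 29.2 and 28.5 CPM in OE, and Ndufa7 22.7 and 25.1 CPM against 25.6, 25.6 and 25.6 CPM. For Ndufv3, a subunit of the NADH-oxidising module, the log2 fold change was 0.25 with a 95% interval of -0.03 to 0.52 and an edgeR adjusted p of 0.866.

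Outside control 2 the chain genes varied little. The median SD of log2 CPM over the 5 libraries was 0.09 for the 81 genes and 0.24 for all tested genes, at a median level of 63.1 and 7.68 CPM, and with control 2 it was 0.62 and 0.41. The part of the level in this difference was not tested. OE 1 was the lowest library for 30 of the 81 genes, against 14.2% of all tested genes. Control 2 was the lowest for 1 chain gene but for 34.1% of all tested genes, which leaves more chain genes to the other 5 libraries. The 30 and the 14.2% are therefore not like for like. The median difference of OE 1 from controls 1 and 3 was -0.17 in complex IV and -0.02 in complex I. OE 1 was also the library with the most Wnt3 and the fewest counts of oligodendrocyte markers, with the 10 of that list summing to 3145 CPM against 4627 to 6843 CPM in the other libraries, and the part of either in these values was not tested.

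Transcript length moved with the excess in control 2. A relative length was taken as deposited counts over TPM, set to 1 for a typical gene. The chain genes are short, with a median of 0.226 against 0.946 for all tested genes, and when all tested genes were divided into 5 equal classes by length, 67 of the 81 fell in the shortest class, 10 in the next and 4 in the middle class. The genes outside the chain also differed by length in control 2, from a median of 1.80-fold over controls 1 and 3 in the shortest class through 1.36, 1.05 and 0.832-fold to 0.627-fold in the longest. In the 3 shorter classes the chain genes were at 2.85, 2.15 and 1.24-fold, above the other genes of the same class in each, which was not tested.

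Among the chain genes themselves the log2 excess in control 2 and the log2 relative length had r = -0.65 and rho = -0.58 over 80 genes, which share their libraries and are not independent. The flattest genes, Ndufs1 and Sdha, have relative lengths of 0.88 and 0.926. Ndufa11 departed from this, with a relative length of 0.862 and a 3.97-fold excess. With the length trend removed from each library, the median difference of control 2 from controls 1 and 3 was 0.41 in place of 1.47, the medians of OE 1 to 3 were -0.06, 0.01 and -0.01, and the median log2 fold change was -0.18. By complex it was then -0.21, -0.05, -0.19, -0.17 and -0.16 from I to V. What produced the length trend in control 2 was not tested.

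**Figure D4:**
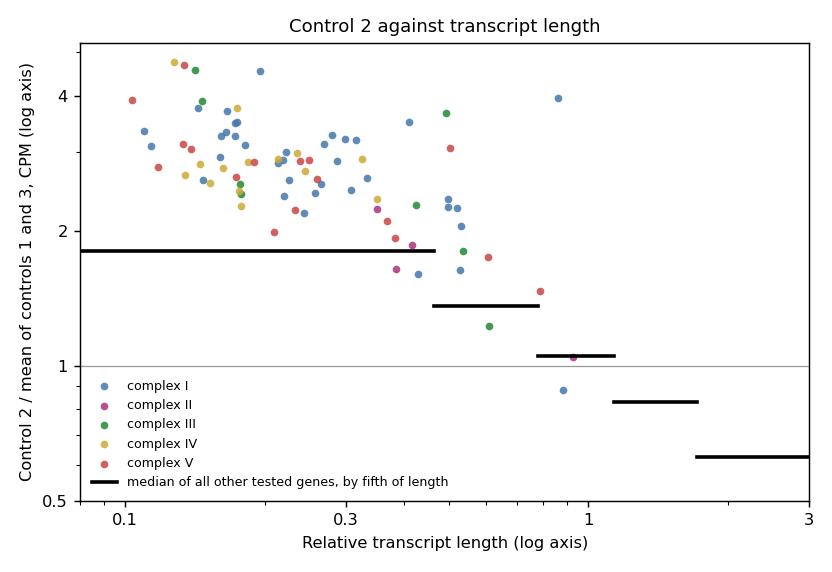
CPM of control 2 over the mean of controls 1 and 3 (log axis) against relative transcript length (log axis) for 80 chain genes coloured by complex, with the median of all other tested genes in each of 5 length classes as a black line. Most chain genes lie in the shortest class and above its median of 1.80, and the values decline with length.

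The subunits encoded in the mitochondrial genome were as a group near the other controls in control 2. The 13 genes took 9.28%, 9.90% and 9.10% of counts in controls 1 to 3 and 7.79%, 8.65% and 8.88% in OE 1 to 3, and control 2 was at a median of 1.05-fold. Single genes ranged from 0.254-fold for ND4L and 0.440-fold for ATP8 to 2.15-fold for ND6 and 2.20-fold for ND3. ND3, a complex I subunit, had 582, 1243 and 549 CPM in control and 431, 504 and 508 CPM in OE, with no overlap, and COX3, of complex IV, 4912, 8825 and 5082 CPM against 4038, 4297 and 4775 CPM, also with no overlap. In all, 4 of the 13 (ND1, ND3, CYTB and COX3) had every OE library below every control, against 6.04% of all tested genes. Of the 13, 10 were lower in OE (50.7% of all tested genes), with a median log2 fold change of -0.22, and 0 passed the adjusted threshold. Without control 2 all 13 were lower, with a median of -0.14. In that fit 3 of them (ND2, ND4L and ATP8) had an unadjusted edgeR p below 0.05, against 5.87% of all tested genes in either direction. The total shares of OE 1 to 3 were below those of all 3 controls.

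The chain genes outside the symbol rule followed those inside it. The 11 genes, which include Cox4i1, Cyc1 and the electron transfer flavoproteins, were at a median of 2.33-fold in control 2, and 9 were lower in OE with a median of -0.46, which was 0.03 without control 2. Cycs, the electron carrier cytochrome c, had 123, 185 and 113 CPM in control and 108, 96.3 and 109 CPM in OE with no overlap, -0.43 ± 0.22 and, without control 2, -0.17 ± 0.10. Of 44 assembly factors, which insert cofactors and build the complexes, 38 were lower with a median of -0.24 (-0.03 without control 2). At an unadjusted edgeR p below 0.05, 3 were lower, against 2.8% of all tested genes, and 0 passed the adjusted threshold. Without control 2, 1 of the 44 had such a p, against 5.87% of all tested genes in either direction. Sdhaf1, needed for the iron-sulphur clusters of complex II, had 6.22, 15.4 and 8.17 CPM in control and 4.85, 4.29 and 4.69 CPM in OE, a log2 fold change of -1.11 ± 0.35, and -0.64 ± 0.20 without control 2. Ndufaf8, an assembly factor of complex I, had 3.05, 8.51 and 2.22 CPM against 1.32, 1.90 and 1.98 CPM. All OE libraries were thus below all controls for both genes, as for 6.04% of all tested genes.

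Lists of other mitochondrial functions and of ribosomes were raised in control 2 to different degrees. Of 84 cytosolic ribosomal protein genes, which are short as well (median relative length 0.240), all were lower in OE with a median of -0.63, and 0.08 without control 2, and control 2 was at a median of 2.91-fold. Of 78 mitochondrial ribosomal protein genes 77 were lower, with medians of -0.48 and -0.02 and of 2.08-fold in control 2. The 18 genes of the tricarboxylic acid cycle (1.11-fold in control 2; log2 fold change -0.11, and -0.01 without it), the 17 of glycolysis (1.49-fold; -0.14 and 0.10) and the 26 carriers, cristae and fission-fusion genes (1.55-fold; -0.17 and 0.04) were nearer to 0. The 18 regulators of mitochondrial biogenesis, with a median relative length of 1.67, were below controls 1 and 3 in control 2 (0.796-fold), with medians of 0.07 and 0.01. Gabpa, the DNA-binding subunit of GABP, had 29.1, 19.9 and 31.5 CPM in control and 35.8, 32.5 and 38.2 CPM in OE with no overlap. Its log2 fold change was 0.40 ± 0.21 (edgeR adjusted p = 0.822), and 0.23 ± 0.12 without control 2. In none of these lists did a gene pass the adjusted threshold of edgeR.

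**Figure D5:**
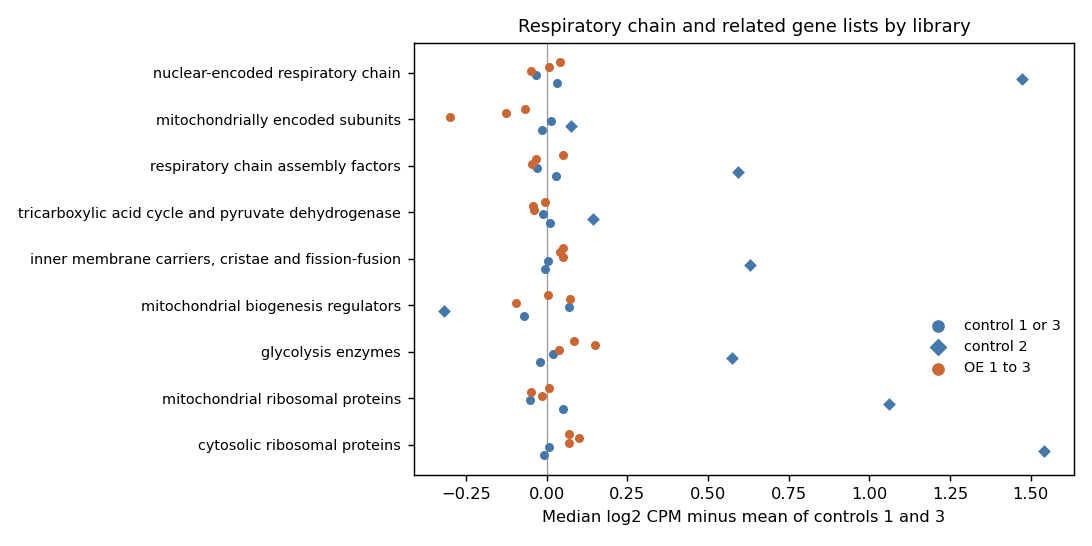
Median log2 CPM of each gene list minus the mean of controls 1 and 3, by library (blue circles, controls 1 and 3; blue diamonds, control 2; orange, OE 1 to 3). Control 2 is at 1.47 for the respiratory chain genes and 1.54 for cytosolic ribosomal proteins, and at 0.08 for the mitochondrially encoded subunits and -0.32 for the biogenesis regulators.

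Markers of cell types were summed over lists of 10 genes to describe the libraries. Neuron markers summed to 7176 CPM in control 2 and to 7936 to 8613 CPM in the others, and astrocyte markers to 4122 CPM against 5871 to 7373 CPM. These sums are weighted to abundant genes, and the single markers went both ways. Over controls 1 and 3, control 2 was at a median of 1.08-fold for neuron markers (0.408 to 1.56-fold by gene). For astrocyte markers the median was 1.12-fold (0.405 to 2.35-fold). Erythroid markers summed to 1072 CPM in control 2 and 328 to 701 CPM in the others, with Ahsp at 0 throughout. The sums of microglia markers (602 CPM against 312 to 499 CPM), skeletal muscle markers (18.2 CPM against 7.62 to 9.95 CPM) and oligodendrocyte markers (6843 CPM against 3145 to 6423 CPM) were also highest in control 2. By tested gene, control 2 was at 1.02 to 3.09-fold over controls 1 and 3 for microglia markers. For oligodendrocyte markers it was at 0.687 to 2.10-fold, and for skeletal muscle markers at 0.285 to 4.41-fold, so single genes of these 2 lists went both ways. Acta1 alone gave 11.5 CPM of the muscle sum in control 2. Choroid plexus markers were near 0 in every library (3.99 to 11.5 CPM). Control 2 lay within the range of the other libraries for parvalbumin interneuron markers (1318 CPM against 1241 to 1620 CPM), cortical excitatory neuron markers (1384 CPM against 1245 to 1384 CPM) and striatal projection neuron markers (286 CPM against 271 to 447 CPM). Endothelial markers summed to 229.9 to 259 CPM in control and to 299 to 484 CPM in OE. Of the 10 genes, 7 were higher and 3 lower in OE. At an unadjusted edgeR p below 0.05, 4 were higher, against 1.86% of all tested genes. The part of cell composition in the values of the chain genes was not tested.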

How the data were processed

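Total RNA was made into strand-specific TruSeq libraries, per the labels' protocols. The build mm10 and the tools STAR 2.5.3a, Cuffnorm, DESeq 1.16.1 and FastQC 0.11.5 are named in the submitters' processing notes, without their roles. Which program counted the reads, with which annotation and strand setting, is not given in the sources used here, so antisense or near-identical genes may share reads. The deposited values are unnormalised whole-number counts per gene in one table and the authors' TPM per gene in the other, with 1 column per library.

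The counts were tested with edgeR 4.0.16 in R 4.3.3 (quasi-likelihood, TMM, filterByExpr with a minimum count of 10, a model with group alone and 4 residual degrees of freedom, Benjamini-Hochberg adjustment over 22360 genes at 0.05). The ± of a fold change is its SE and intervals are 95%. An exact permutation test of 3 against 3 cannot go below p = 0.1, so none was used. DESeq2 1.42.0 and limma-trend (limma 3.58.1, on log2(TPM + 1) and log2(TPM + 0.1)) were alternatives, beside other size factors and filters, removal of the length trend, a replicate block and leaving out each library. Log2 CPM used a prior count of 2. The length trend was a lowess curve of span 0.3 per library. The fit was tested on simulated counts. Coordinates are from GENCODE M21 on mm10, which located 80 of the 83 genes.

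The members, gene lists and tests were chosen with earlier results of these data known. Genes were named by rule: in each complex the 3 with the highest mean TPM and the 3 with the smallest p, the Sdh genes, the isoform groups, Wnt3, and up to 2 per other list with the smallest p, with exceptions stated. From the other lists only some of the genes so chosen are printed.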

Additional observations from a re-analysis of the deposited data

How the results depend on the processing

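The count of chain genes called was 0 under each of the 18 alternatives. The number lower at an unadjusted p, 4 as reported, was 16 with DESeq2, 0 with limma-trend on TPM (both pseudocounts and the filter on mean TPM), 0 with the length trend and control 2 both removed, and 0 to 42 on leaving out 1 library. The median log2 fold change, -0.68 as reported, was -0.94 to 0.0034 on leaving out 1 library, and by complex -0.97 to 0.0066 (I), -0.46 to 0.011 (II), -0.85 to -0.0096 (III), -0.94 to -0.052 (IV) and -0.91 to 0.0054 (V), the upper ends being without control 2. With the length trend and control 2 both removed, an alternative chosen after seeing the data, the medians were -0.0089 over the chain and -0.0031 (I), -0.0032 (II), -0.016 (III), -0.058 (IV) and -0.0082 (V). Genes whose groups do not overlap, 1 as reported (11.9% of all tested genes), numbered 5 there (21.9%), 3 with the length trend alone removed (13%), 2 on TPM (all 3 settings; 14%) and 2 with total counts only (12.2%). Without 1 library they numbered 3 to 21 (7, 9 and 21 without control 1, 2 and 3, against 23.9%, 21.9% and 25.4%; 4, 3 and 14 without OE 1, 2 and 3, against 18.8%, 19% and 23%). They were not counted for the other settings. Of 647 single-gene values under alternatives, 627 kept their direction and 20 reversed. Leaving out 1 library gave -0.99 to 0.11 for Ndufa4, -1.01 to 0.0066 for Ndufb9, -0.94 to 0.021 for Ndufb10, -0.68 to 0.022 for Sdhb, -0.45 to 0.0054 for Atp5b, -0.85 to 0.075 for Atp5md, -0.92 to 0.15 for Cox6b2, -0.89 to 0.015 for Cox7a2, -0.69 to 0.064 for Cox7a2l and -0.50 to 0.080 for Atp5g2. With length trend and control 2 removed, Ndufa4 was at 0.10, Ndufb10 at 0.011, Sdhb at 0.0086, Atp5md at 0.072, Cox6b2 at 0.14, Cox7a2 at 0.0037, Cox7a2l at 0.051 and Atp5g2 at 0.071, and with the trend alone removed Cox6b2 was at 0.13 and Atp5g2 at 0.10.

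With the replicate number as a block, the median was -0.47, 1 chain gene was lower at an unadjusted p, and 0 passed. Libraries with the same number deviated together by r = 0.06, -0.02 and -0.01, so the numbers were not taken as pairs. Genes under 1 CPM, such as Cox7a1 and Cox7b2, are limited by depth.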
